A study of Mus musculus with 5 samples.

Results

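The nuclear genes of oxidative phosphorylation were followed across the cell classes and regions of the mouse kidney. Members were chosen by symbol alone: every listed gene beginning with Ndufa, Ndufb, Ndufc, Ndufs, Ndufv, Uqcr, Cox4 to Cox8 or Atp5, and Sdha, Sdhb, Sdhc and Sdhd. The rule met 91 of the 16934 genes listed in the 5 count tables. Complex I gave 36 subunits and 8 assembly factors (the Ndufaf genes), complex II 4 subunits, and complex III 8. Complex IV gave 17 subunits, with Ndufa4 counted there, plus the Ndufa4 paralogue Ndufa4l2 and the supercomplex factor Cox7a2l. Complex V gave 15 subunits and the coupling factor Atp5s. The tables listed no mitochondrially encoded gene, so the subunits made inside the organelle are outside these values.

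Complexes I to IV form the respiratory chain of the inner mitochondrial membrane: they pass electrons from NADH and succinate to oxygen and pump protons, and complex V, the ATP synthase, uses the proton gradient to make ATP. Most of their subunits are encoded in the nucleus, translated in the cytosol and imported. Renal tubules spend much of this ATP on sodium transport, the proximal tubule, the thick ascending limb and the distal convoluted tubule being dense in mitochondria, while the inner medulla is poorly oxygenated and its collecting duct relies largely on glycolysis.

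The study, whose title asks about gene expression along the corticomedullary axis and tissue osmolality, profiled dissociated cells by Drop-seq, a droplet method that counts unique molecular identifiers (UMIs) at the 3′ ends of transcripts. Kidneys were wild type, of the strain labelled C56BL/6N, untreated as far as the labels say. The cortex, the outer medulla and the inner medulla gave 1 library each and the whole kidney gave 2. The labels do not give age, sex or the number of animals, and do not say whether the 2 whole kidney libraries came from separate animals. Each region therefore stands on 1 library, so no test between regions was possible, and the whole kidney pair was the only measure of spread between libraries.

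Between 898 and 3305 barcodes per library had at least 200 detected genes, with median UMI counts of 440 to 517. Pairs of libraries shared 0 or 1 barcode. The doublet caller marked 22 of 12121 cells (0.182%), too few to count as having worked, so doublets remain in the classes. The other 12099 cells fell into 15 clusters, and no member was among the genes used to cluster. Clusters were called "-like" by markers: proximal tubule (clusters 1 to 4), distal convoluted tubule, thick ascending limb, connecting tubule, principal cell (clusters 7 and 9), intercalated cell, endothelial, podocyte, and stromal or mural. Clusters 10 and 13 had too few detected markers for a name. A class was used in a library where it held at least 30 cells and 20000 UMIs. All intervals below are exact 95% intervals and cover counting error only.

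Distal convoluted tubule-like cells gave the highest summed share of the members in each of the 4 libraries where the class was large enough, the inner medulla being the exception. This share, the member UMIs as a percent of all UMIs of a class, was 14.1% in the cortex, 14.1% in the outer medulla, and 13.1% in both whole kidney libraries. Thick ascending limb-like cells followed, with 10.5% in the cortex, 11.2% in the outer medulla, 15.4% in the inner medulla, and 9.80% and 11.4% in the whole kidney libraries. Intercalated cell-like cells held 10.98%, 10.1%, 9.01%, 9.48% and 10.3% in the same order of libraries. Connecting tubule-like cells, large enough in 3 libraries, held 8.46% in the cortex and 8.07% and 8.52% in the whole kidney.

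Proximal tubule-like cells, the most numerous class, stood lower, at 7.56% in the cortex, 7.59% in the outer medulla, 6.83% in the inner medulla, and 6.999% and 7.59% in the whole kidney. Principal cell-like cells ranged from 7.90% in the cortex through 6.12% in the outer medulla to 3.78% in the inner medulla, with 7.44% and 8.56% in the whole kidney. Endothelial-like cells held 5.05% in the cortex, 5.95% in the outer medulla and 5.04% in whole kidney 2. In these endothelial sums the free RNA estimate was 87.0%, 99% and 64.7% of UMIs, the 99% being the upper limit set for the estimate. With free RNA subtracted the median share was 0.270% in place of 5.05%, so neither the share nor its place is firm. The classes ordered by median were distal convoluted tubule, thick ascending limb, intercalated cell, connecting tubule, proximal tubule, principal cell and endothelial. Leaving out the outer or the inner medulla put principal cells above proximal tubule, and leaving out any of the other 3 libraries changed no place.

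**Figure D1:**
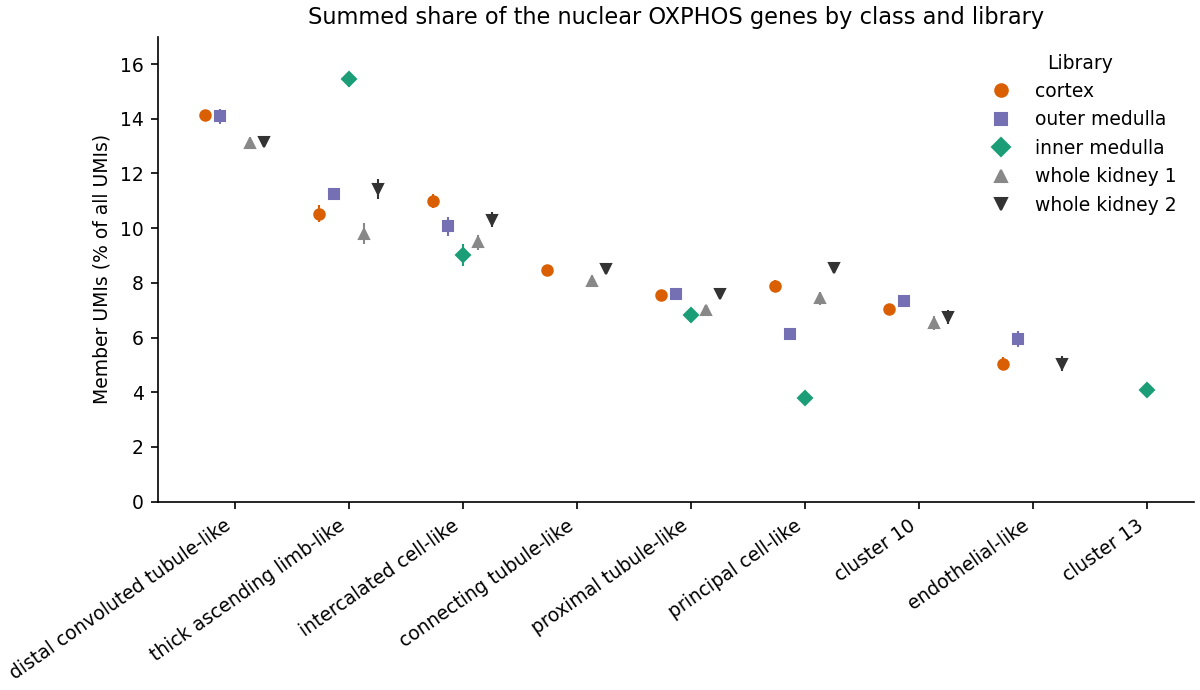
Summed share of the 91 nuclear OXPHOS genes (percent of all UMIs, vertical axis) by cell class (horizontal axis), 1 point per library with its exact 95% counting interval. Distal convoluted tubule-like cells lie at 13.1% to 14.1%; the inner medulla point is the highest of the thick ascending limb-like class (15.4%) and the lowest of the principal cell-like class (3.78%).

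Set against proximal tubule-like cells of the same library, the distal convoluted tubule-like share was 1.88-fold (interval 1.84 to 1.91) in whole kidney 1 and 1.73-fold (1.70 to 1.76) in whole kidney 2, and 1.87-fold and 1.86-fold in the cortex and outer medulla. Every complex was higher there. In whole kidney 1 and 2 the ratio was 1.73 and 1.60 for complex I, 1.52 and 1.40 for complex II, and 1.89 and 1.68 for complex III. It was 1.92 and 1.84 for complex IV and 2.07 and 1.82 for complex V. Complex II, the succinate dehydrogenase shared with the tricarboxylic acid cycle, had the smallest of these ratios.

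Single members were compared by their UMIs scaled to a common class total (CPM). A member counted as tested where its mean over the sums compared was at least 200 CPM, and as past the fold size where log2(CPM + 10) differed by at least 1, in both whole kidney libraries for class comparisons. Of 72 tested members, 71 were higher in distal convoluted tubule-like cells in both whole kidney libraries and 12 (16.7%) were past the fold size, against 14.6% of all 876 genes tested. The members were thus past the fold about as often as other genes, while their median log2 ratio was 0.81 against 0.13 over all genes tested. Their shift was broad and mostly under 2-fold. Over all libraries, 64 of 73 members had every distal convoluted tubule-like value above every proximal tubule-like value, 87.7% against 31% of all genes.

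The largest differences of distal convoluted tubule-like cells were in Cox7b, a small structural subunit of cytochrome c oxidase, and Atp5h, the d subunit of the ATP synthase stalk. Cox7b measured 4107, 4652, 3575 and 3902 CPM in the cortex, outer medulla and whole kidney libraries, against 1578, 1566, 1216 and 1418 CPM in proximal tubule-like cells. Its log2 ratios in the whole kidney were 1.55 and 1.45. Atp5h followed at 1.42 and 1.26, Cox5b at 1.39 and 1.29, Atp5g1, which encodes the c subunit of the rotor ring, at 1.43 and 1.11, and Ndufv2, a flavin-module subunit of complex I, at 1.41 and 0.997. At the other end, Sdhc, a membrane anchor of complex II, stood at 0.00 and -0.39. Umod, a thick ascending limb marker, measured 2211 to 2844 CPM in this class against 5735 to 12604 CPM in thick ascending limb-like cells, whereas Slc12a1 was at 8.25 to 82.2 CPM against 4945 to 8368 CPM. Their part in the values was not tested.

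In thick ascending limb-like cells 57 of 72 tested members were higher than in proximal tubule-like cells in both whole kidney libraries, and 3 (4.17%) were past the fold size, against 9.21% of all genes. The 3 were Ndufa9 (log2 ratios 1.22 and 1.18), Ndufb10 (1.14 and 1.24) and Atp5h (1.09 and 1.03). Ndufa9 had 11 and 15 UMIs there, at 498 and 508 CPM against 207 and 219 CPM in proximal tubule-like cells. In the limb of cortex, outer and inner medulla it measured 147, 293 and 322 CPM. In intercalated cell-like cells 57 of 73 were higher in both and 2 (2.74%) were past the fold size, against 12.9% of all genes. These were Atp5h (1.30 and 1.14) and Sdhd, the other membrane anchor of complex II (1.11 and 1.07). Ndufv3 of complex I lay among the 5 smallest in all 3 classes, at 0.13 and 0.06 in distal convoluted tubule-like, -0.32 and 0.18 in thick ascending limb-like and -0.39 and 0.18 in intercalated cell-like cells. Atp5h was thus past the fold in all 3 classes, and Atp5g1 averaged 1.05 in thick ascending limb-like and 1.11 in intercalated cell-like cells.

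These comparisons with proximal tubule-like cells depended on scaling. The sums also differed in depth, whose part was not tested: 22107 to 121207 UMIs for the other classes against 1496267 and 2454333 for proximal tubule-like cells in the whole kidney. With shares the mean log2 ratio was 0.85 for distal convoluted tubule, 0.54 for thick ascending limb, 0.44 for intercalated, 0.19 for connecting tubule and 0.13 for principal cells. TMM factors from all detected genes moved the reference by 0.35 to 0.92 and gave 0.33, -0.32, -0.32, -0.20 and -0.60. TMM factors from genes of at least 200 CPM gave 0.69, 0.32, 0.29, 0.31 and 0.05. Only the distal convoluted tubule value kept its sign under the TMM factors from all genes.

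In principal cell-like cells, the members were lower toward the inner medulla. From the cortex to the inner medulla the summed share went from 7.90% to 3.78%, a ratio of 0.479 (0.463 to 0.495), and the outer medulla lay between, at 0.775 (0.745 to 0.806) of the cortex. The whole kidney pair differed by 1.15-fold in the same class. Cytosolic ribosomal protein genes, summed in the same way, stood at 1.08 (1.05 to 1.12) of the cortex in the inner medulla and at 0.854 (0.818 to 0.893) in the outer medulla.

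Complex III had the lowest ratio of inner medulla to cortex, 0.373 (0.336 to 0.414), followed by complex IV at 0.427 (0.403 to 0.453), complex V at 0.434 (0.404 to 0.467) and complex II at 0.460 (0.366 to 0.580). Complex I stood higher, at 0.612 (0.577 to 0.649). Complex I subunits and factors thus made up 38.5% of member UMIs in inner medullary principal cell-like cells, against 28.0% to 33.8% in every other named class and library. In the outer medulla complex II stood at 0.605 (0.454 to 0.804) of the cortex, complex III at 0.636 (0.562 to 0.720), complex V at 0.729 (0.670 to 0.792), complex IV at 0.778 (0.728 to 0.832) and complex I at 0.870 (0.812 to 0.932), so complex I was again the highest.

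**Figure D2:**
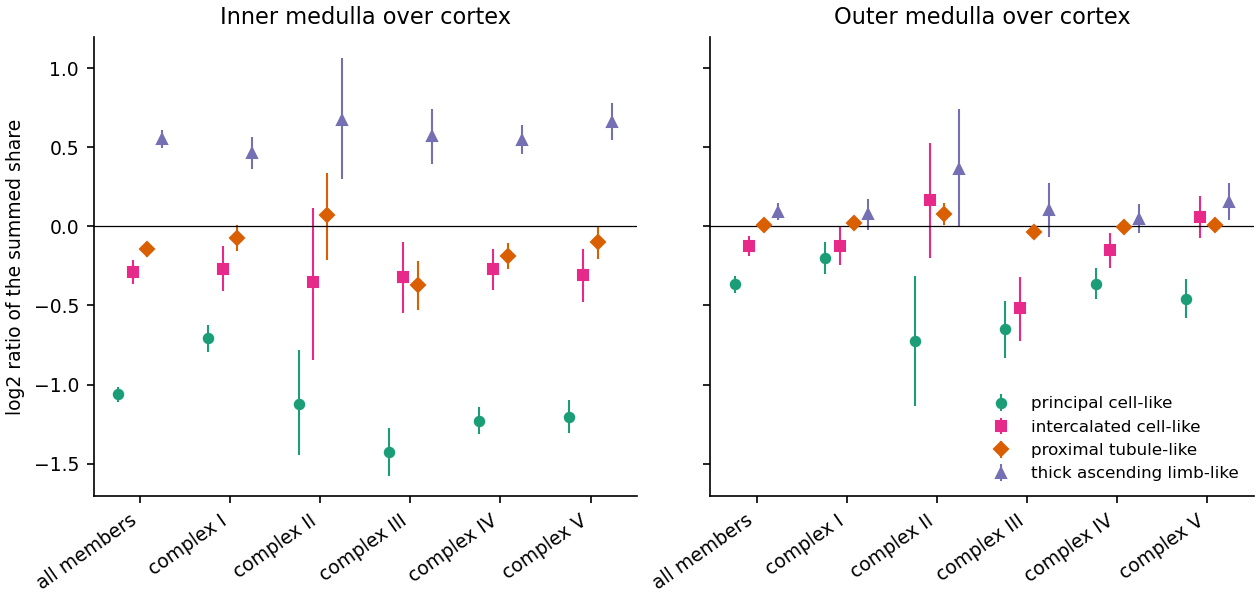
log2 ratio of the summed share (vertical axis) for all members and for each complex (horizontal axis), inner medulla over cortex on the left and outer medulla over cortex on the right, in 4 cell classes; bars are exact 95% counting intervals. Principal cell-like cells lie below 0 for every complex and thick ascending limb-like cells above 0 for every complex in the inner medulla.

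Of the 91 members, 69 were tested in this comparison and 22 were too low. Of the 69, 66 were lower in the inner medulla in value, 37 (53.6%) were past the fold size downward, against 17.1% of all 1001 genes tested, and 0 were past it upward, against 14.9%. Of the 37, 4 passed the level filter through the cortex alone, and of the 64 members above it in both sums 33 were past the fold size. The median log2 ratio was -1.05 for members and 0.06 for all genes tested. For 55 members (79.7%) the counting interval of the ratio lay below 1, against 25% of all genes. Of members with a mean of at least 200 CPM over all libraries, 59 of 70 (84.3%) had their lowest principal cell-like value in the inner medulla, against 33.4% of all genes. The step from cortex to outer medulla was smaller: 57 of 69 were lower in value and 2 (2.9%) were past the fold size, against 4.69% of all genes. Of these 2, Cox7a1 (316 CPM in the cortex and 139 in the outer medulla) passed the level filter through the cortex alone. From outer to inner medulla 60 of 66 were lower in value and 9 (13.6%) past it, against 10.6%.

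Uqcr10, a small subunit of complex III, had the lowest ratio among the tested members. It measured 1846 CPM in the cortex, 755 in the outer medulla, 380 in the inner medulla, and 1520 and 1515 in the whole kidney, a ratio of inner medulla to cortex of 0.206 (0.158 to 0.269). Uqcrfs1, the Rieske iron-sulfur protein of complex III, had a ratio of 0.305 (0.206 to 0.454). The outer medulla of Uqcr10 was already at 0.409 (0.297 to 0.559) of the cortex, the lowest among the tested members there too. Of the tested members of complex I, Ndufb5, a membrane-arm subunit, was lowest at 0.289 (0.202 to 0.417). Of the tested members of complex IV, Cox7a2 was lowest: 1830 CPM in the cortex, 1360 in the outer medulla, 581 in the inner medulla, and 1816 and 2193 in the whole kidney. Its ratio was 0.318 (0.2499 to 0.405), and the inner medulla lay apart from the other 4 libraries.

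Among the most abundant members, Cox6c measured 3471, 2173 and 1143 CPM from cortex to outer to inner medulla, and 2829 and 3607 in the whole kidney. Cox4i1, the ubiquitous form of subunit IV, measured 3156, 3103 and 1388 CPM, and 2808 and 3289 in the whole kidney, so its outer medulla value lay with the cortex. Atp5b, the catalytic beta subunit of the ATP synthase, measured 2098, 1476 and 733 CPM, with a ratio of 0.3495 (0.281 to 0.437). Sdha, the flavoprotein of complex II, stood at 299.8, 81.3 and 129 CPM, with 296 and 317 in the whole kidney, so its lowest value was in the outer medulla. Sdhd stood at 568, 395 and 198 CPM, with 549 and 707 in the whole kidney.

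A few complex I members did not share the lower level. Ndufb8, a membrane-arm subunit, measured 836 CPM in the cortex, 1034 in the outer medulla, 1100 in the inner medulla, and 1161 and 909 in the whole kidney, with a ratio of 1.32 (0.982 to 1.79). Ndufb7 (1.41, 0.942 to 2.17), Ndufs6 (1.33, 0.784 to 2.42) and Ndufs7 (0.9498, 0.627 to 1.49) also had intervals that include 1. In all, 11 of 33 tested complex I members had such intervals, against 1 of 8 of complex III, 1 of 12 of complex IV and 1 of 13 of complex V. An interval that includes 1 is not an unchanged level: only 3 of the 69 tested members were higher in value. Such counts depend on UMIs per member as well as on the ratio. The complex IV exception was Cox7a2l, the factor that helps join complexes III and IV, at 663 CPM in the cortex and 631 in the inner medulla. The complex III exception was Uqcrc1 and that of complex V was Atp5k.

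**Figure D3:**
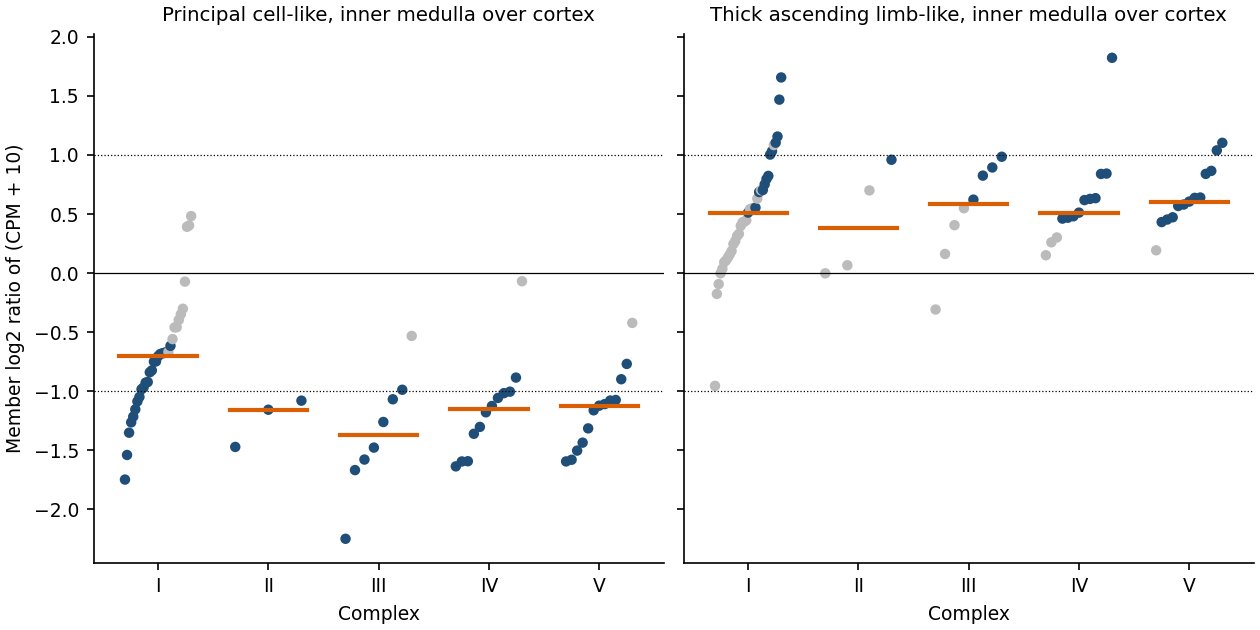
log2 ratio of (CPM + 10), inner medulla over cortex (vertical axis), of each tested member, by complex (horizontal axis), in principal cell-like cells (69 members) and thick ascending limb-like cells (75 members). Blue points have a counting interval that leaves out 1, grey points one that includes it; orange lines are medians and dotted lines the fold size. Most points lie below 0 on the left and above 0 on the right.

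The class was made of different clusters in the 2 regions. All 99 cortical cells came from cluster 7, whereas 432 of 480 inner medullary cells came from cluster 9, led by Aqp4 and Plet1. Within cluster 7 alone the inner medulla (48 cells) held 4.63% and the cortex 7.90%, a ratio of 0.586 (0.548 to 0.626). Within the inner medulla, cluster 9 was at 0.802 (0.754 to 0.855) of cluster 7. Its complex I was at 0.966 (0.866 to 1.08) and its complex IV at 0.715 (0.642 to 0.800) of cluster 7. Complex I thus made up 32.5% of member UMIs in inner medullary cluster 7 and 39.1% in cluster 9.

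Markers of other cells moved with this comparison. Connecting tubule markers made up 2.04% of principal cell-like UMIs in the cortex, 0.207% in the outer medulla and 0.010% in the inner medulla, and 2.75% and 2.34% in the whole kidney. Of the 6 connecting tubule markers 5, 5 and 3 were detected in the regions. The 12 proximal tubule markers made up 1.04%, 0.781% and 0.0353%, and 1.19% and 1.88%, and the free RNA estimate read from them was 20.9%, 15.7% and 2.69% of UMIs. The summed share of members in cortical connecting tubule-like and proximal tubule-like cells themselves was 8.46% and 7.56%. The part of the connecting tubule markers in the result was not tested. With free RNA subtracted, 36 of 69 members were past the fold size.

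Promoter sequences are shown for members with large ratios here or in the thick ascending limb comparison that follows, as examples of each motif found, since many members moved together. Of the 91 members, 76 had a promoter window in the RefSeq table (build GRCm38.p6), running from 250 bases before to 50 bases after a transcript start. Windows were searched on both strands for cores of factors known to act on respiratory genes. The NRF1 core GCGCATGC lay in 12 members (15.8%), against 3.94% of all 17492 genes with a window. The YY1 core AANATGGC lay in 19 (25%) against 7.46%, the ETS core CCGGAAG of GABP in 18 (23.7%) against 12.9%, and the ERR core TNAAGGTCA in 3 (3.95%) against 1.19%. A gene with several windows counted once, and a match is a description of letters, not of binding. The 100 bases before the start are printed 5′ to 3′ along the gene, with the core in capitals on either strand.
Ndufb4 (ERR, chr16:37654369-37654468, minus strand): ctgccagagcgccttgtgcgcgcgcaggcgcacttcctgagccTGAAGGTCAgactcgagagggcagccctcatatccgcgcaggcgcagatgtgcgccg
Atp5g3 (ERR, chr2:73911327-73911426, minus strand): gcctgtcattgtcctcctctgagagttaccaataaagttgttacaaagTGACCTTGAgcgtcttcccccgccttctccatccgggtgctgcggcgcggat
Ndufb5 (YY1, chr3:32736963-32737062, plus strand): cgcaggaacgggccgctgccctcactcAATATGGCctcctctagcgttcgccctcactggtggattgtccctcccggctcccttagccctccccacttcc
Ndufa8 (NRF1, chr2:36049339-36049438, minus strand): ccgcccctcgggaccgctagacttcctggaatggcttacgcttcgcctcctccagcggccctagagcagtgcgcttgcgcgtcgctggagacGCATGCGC
Ndufs3 (ETS, chr2:90904722-90904821, minus strand): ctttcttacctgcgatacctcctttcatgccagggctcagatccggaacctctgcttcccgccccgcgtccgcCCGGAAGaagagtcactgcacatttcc
Atp5h (ETS, chr11:115419920-115420019, minus strand): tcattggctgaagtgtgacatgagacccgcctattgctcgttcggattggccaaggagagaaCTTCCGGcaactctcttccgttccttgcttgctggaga
Uqcr10 (none of the 4 cores, chr11:4704345-4704444, minus strand): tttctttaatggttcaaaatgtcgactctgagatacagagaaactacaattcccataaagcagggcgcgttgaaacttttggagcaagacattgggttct

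Members that share a core differed in size of ratio. Ndufb4 and Atp5g3 both carry the ERR core, yet in inner medullary principal cell-like cells Atp5g3 was at 0.325 (0.238 to 0.446) of the cortex while the log2 ratio of Ndufb4 was -0.35, with an interval that includes 1. Among members past the fold size in that comparison, 6 of 31 with a window held the NRF1 core, 9 held the ETS core and 5 held the YY1 core. Among tested members not past it, the counts were 3, 6 and 11 of 29.

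In thick ascending limb-like cells the members were higher in the library of the inner medulla dissection. It held 109 of these cells, and the labels do not say where in the dissected tissue they lay. The summed share was 10.5% in the cortex, 11.2% in the outer medulla and 15.4% in the inner medulla, with 9.80% and 11.4% in the whole kidney. The inner medulla stood at 1.47 (1.41 to 1.52) of the cortex and 1.37 (1.34 to 1.41) of the outer medulla, and the outer medulla at 1.07 (1.03 to 1.11) of the cortex. The whole kidney pair differed by 1.17-fold (1.10 to 1.23), more than outer medulla and cortex did. All complexes were higher over the cortex: 1.38 (1.28 to 1.48) for complex I, 1.60 (1.23 to 2.09) for complex II, 1.48 (1.32 to 1.67) for complex III, 1.46 (1.37 to 1.56) for complex IV and 1.58 (1.46 to 1.71) for complex V.

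Of 75 tested members, 69 were higher in the inner medulla than in the cortex in value and 10 (13.3%) were past the fold size, against 10.5% of all 889 genes tested. The share past the fold was thus near the background, and 2 of the 10 passed the level filter through the inner medulla alone. The median log2 ratio was 0.55 for members and 0.08 for all genes. Counting intervals lay above 1 for 40 members (53.3%), against 11.6% of all genes. They included 12 of 13 tested members of complex V, 10 of 13 of complex IV and 13 of 37 of complex I. These counts depend on UMIs per member as well as on the ratio. The median log2 ratio was 0.51 for complex I, 0.51 for complex IV and 0.61 for complex V. Complex I gave 7 of the 10 members past the fold size. Over the outer medulla 4 of 74 (5.41%) were past the fold size, against 6.05%, 3 of the 4 having passed the level filter through the inner medulla alone, with a median of 0.41 against 0.19, and 43 intervals (58.1%) lay above 1, against 17.9%. In 60 of 74 members (81.1%) the inner medulla was the highest of the 5 libraries, against 29.3% of all genes.

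Cox7a1, known as the heart and muscle form of a complex IV subunit, passed the level filter only through the inner medulla, where it was high, and had few counts, so its ratio is given as a description. It measured 87.9 CPM in the cortex (3 UMIs), 137 in the outer medulla, 337 in the inner medulla (23 UMIs), and 45.2 and 67.7 in the whole kidney, and the ratio over the cortex was 3.83 (1.16 to 19.9). Ndufs3, a core subunit of the matrix arm of complex I, measured 234, 385 and 761 CPM in cortex, outer and inner medulla and 181 and 576 in the whole kidney. Ndufb4 measured 528, 723 and 1478 CPM, a ratio of 2.80 (1.69 to 4.92). Atp5j, coupling factor 6 of the ATP synthase, measured 2345, 2930 and 4828 CPM in the regions and 3166 and 3387 in the whole kidney, a ratio of 2.06 (1.61 to 2.66). Sdhb, the iron-sulfur subunit of complex II, was at 1.95 (1.34 to 2.92). Lowest were Ndufs1 (0.499, 0.186 to 1.34), Uqcrc1 (0.805, 0.504 to 1.30) and Ndufa10, with intervals that include 1.

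Several marker levels moved with this comparison. Cldn16, typical of the cortical limb, stood at 440, 339 and 29.3 CPM in cortex, outer and inner medulla, and Cldn10, typical of the medullary limb, at 1348, 2747 and 3702 CPM. Umod stood at 12604, 10200 and 5735 CPM. Proximal tubule markers made up 0.909%, 1.41% and 0.0644% of UMIs, with 12, 12 and 6 of 12 detected. The part of these levels in the result was not tested. With free RNA subtracted the log2 ratio over the outer medulla was 0.40, against 0.46. Members past the fold size over the cortex numbered 10, and 4 to 19 under other scalings, cell assignments and doublet filters.

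**Figure D4:**
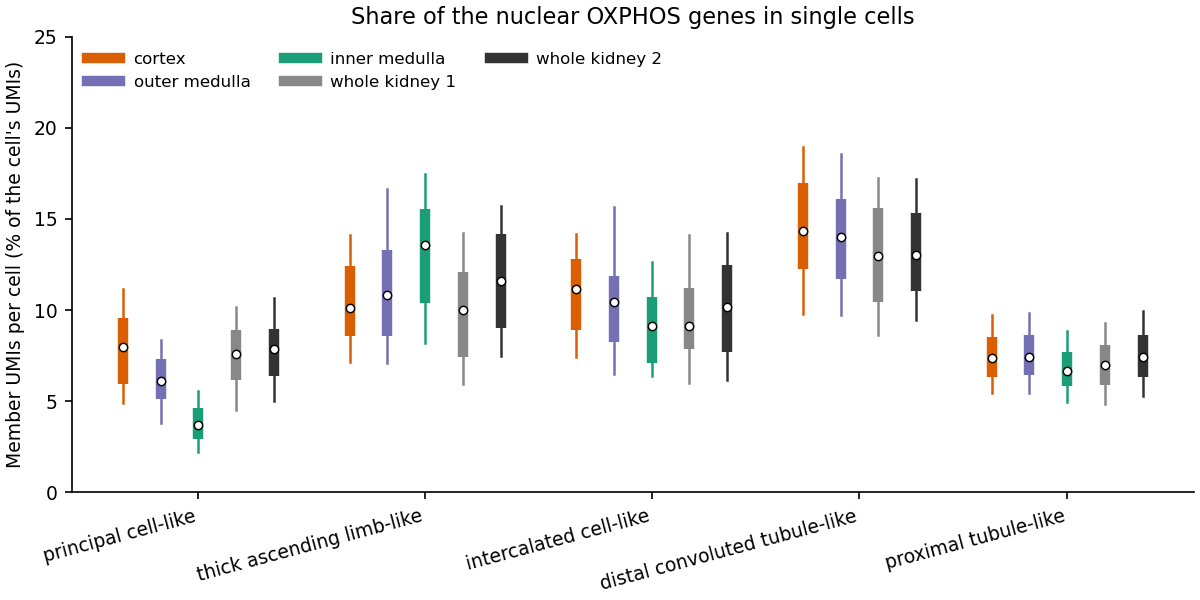
Share of the 91 nuclear OXPHOS genes in single cells (percent of the cell's UMIs, vertical axis) by class and library; white dots are medians, thick bars the middle quartiles and thin lines the 10th to 90th percentiles over cells, which are not replicates. In the inner medulla the median is 3.69% in principal cell-like and 13.6% in thick ascending limb-like cells.

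In principal cell-like cells the difference was spread over cells rather than carried by a few. The median share per cell was 7.97% in the cortex, 6.10% in the outer medulla, 3.69% in the inner medulla, and 7.61% and 7.87% in the whole kidney. The 90th percentile of inner medullary cells, 5.57%, lay below the lower quartile of cortical cells, 5.93%. In thick ascending limb-like cells the medians were 10.1%, 10.8%, 13.6%, 10.0% and 11.6%. The quartiles of the inner medulla (10.4% to 15.5%) overlapped those of the outer medulla (8.59% to 13.3%). The summed share of the inner medullary limb, 15.4%, weights cells by their UMIs and lay near the upper quartile of 15.5%. The part of cells with many UMIs in that sum was not tested. Median UMI counts per cell were 465, 386 and 503 in principal cell-like cells of cortex, outer and inner medulla, and 348 to 384.5 in the limb.

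Intercalated cell-like cells of the inner medulla, 40 cells with 20284 UMIs and so just over the minimum, stood at 0.820 (0.778 to 0.864) of the cortex. The outer medulla stood at 0.916 (0.877 to 0.957), and the whole kidney pair differed by 1.09-fold (1.04 to 1.14). Of 74 tested members 13 (17.6%) were past the fold size downward, against 12.6% of all genes. Counting intervals lay below 1 for 13 members (17.6%), against 8.7%. Atp5g1 measured 2052 CPM in the cortex, 925 in the outer medulla and 690 in the inner medulla, but 1911 and 2257 in the whole kidney, a ratio of inner medulla to cortex of 0.336 (0.178 to 0.588). Within complex III, Uqcr10 was at 0.426 (0.276 to 0.638) of the cortex in the outer medulla.

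Proximal tubule-like and distal convoluted tubule-like cells differed little between cortex and outer medulla. The ratio of outer medulla to cortex was 1.00 (0.996 to 1.01) in proximal tubule-like cells and 0.997 (0.972 to 1.02) in distal convoluted tubule-like cells. The proximal tubule-like ratio was closer to 1 than the 1.08-fold difference of the whole kidney pair in that class. The distal convoluted tubule-like share was 13.1% in both libraries of that pair. Proximal tubule-like cells found in the inner medulla dissection (88 cells) stood at 0.904 (0.874 to 0.934). Among them Uqcrq, a complex III subunit, was at 598 CPM against 1414 to 1548 CPM in the other libraries. Across proximal tubule clusters and libraries the share ran from 6.54% (cluster 1 in the inner medulla, 14 cells) to 8.14% (cluster 2 in whole kidney 2).

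The paralogues that replace one another in other tissues were mostly represented by 1 form. Cox4i1 measured 1388 to 6437 CPM across tubule classes and libraries, whereas its oxygen-regulated paralogue Cox4i2 gave 7 UMIs in all cells, 6 of them in stromal or mural cells. Cox6a2, Cox6b2, Cox7b2, Cox8b and Ndufa4l2 gave 142, 169, 2, 1 and 10 UMIs, and Cox8c was not listed. Of the 3 genes for the c subunit of the ATP synthase, which encode the same mature protein, Atp5g1 and Atp5g3 measured 545 to 2882 and 354 to 2238 CPM across the tubule classes, and Atp5g2 at most 165 CPM.

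Cox6b2 had few UMIs but differed by class. It measured 31.5 to 98.6 CPM in distal convoluted tubule-like cells, from 26 UMIs, against 10.0 and 12.6 CPM in whole kidney proximal tubule-like cells. Cox7a1, with 592 UMIs, also had a level that depended on class. It measured 462, 396 and 197 CPM in intercalated cell-like cells of cortex, outer and inner medulla, and 373 and 203 in the whole kidney. In principal cell-like cells it measured 316, 139 and 23.1 CPM, and 232 and 260 in the whole kidney, so the inner medulla was at 0.0733 (0.0262 to 0.180) of the cortex, from 7 and 20 UMIs. In proximal tubule-like cells it stood at 39.3 to 56.0 CPM in every library. Its counterpart Cox7a2 stood at 1569 to 2140 CPM there. Cox7a1 lay below the level filter in the principal cell comparison of inner medulla with cortex and was therefore among the 22 members not tested there.

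**Figure D5:**
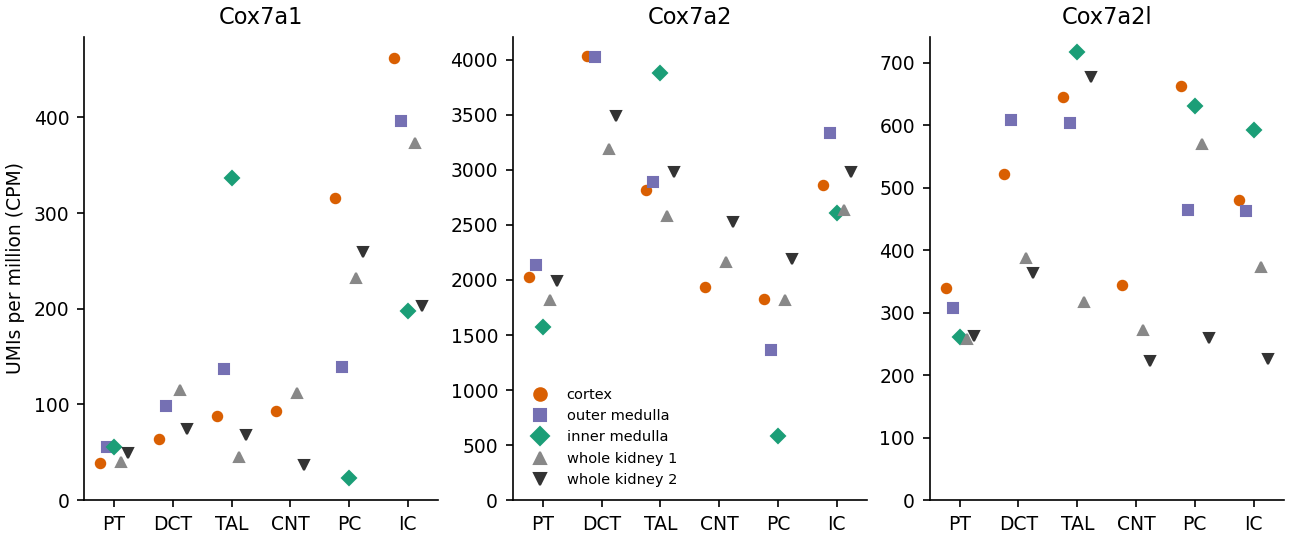
Levels (CPM, vertical axis) of Cox7a1, Cox7a2 and Cox7a2l by class (PT proximal tubule-like, DCT distal convoluted tubule-like, TAL thick ascending limb-like, CNT connecting tubule-like, PC principal cell-like, IC intercalated cell-like), 1 point per library. Cox7a1 is at 39.3 to 56.0 CPM in PT and at 197 to 462 CPM in IC; Cox7a2 and Cox7a1 are both lowest in the inner medulla within PC, and Cox7a2l is not.

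Genes around the respiratory chain were read from fixed lists. In principal cell-like cells, inner medulla against cortex, both electron carriers outside the prefixes were past the fold size downward: Cyc1, cytochrome c1 of complex III, at a log2 ratio of -1.42 and Cycs, cytochrome c, at -1.17. Of 6 tested genes of the tricarboxylic acid cycle 4 were lower, among them Idh2 (-2.09), Idh3g (-1.89) and Idh3b (-1.07). Of 6 tested carriers and channels 2 were lower, the ADP/ATP carrier Slc25a5 (-1.70) and the phosphate carrier Slc25a3 (-1.503). Of 9 tested mitochondrial ribosomal genes 2 were lower and 1 higher. The background for these counts is the 17.1% of all genes past the fold size downward and the 14.9% upward.

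In thick ascending limb-like cells, inner medulla against cortex, 0 of 13 tested tricarboxylic acid cycle genes were past the fold size in either direction, while Cycs (1.08) and 7 of 21 mitochondrial ribosomal genes were higher and 1 lower. Of all genes tested there, 93 of 889 (10.5%) were past the fold size upward and 89 downward. Against proximal tubule-like cells in the whole kidney, 2 of 10 tested tricarboxylic acid cycle genes, Idh2 (1.57) and Idh3a (1.44), and 1 of 6 carriers, Slc25a5 (1.35), were past the fold size upward in distal convoluted tubule-like cells, against 14.6% of all genes. In intercalated cell-like cells 1 of 12, citrate synthase Cs (1.81), and 1 of 6 carriers, the ADP/ATP carrier Slc25a4 (2.06), were past it, against 12.9%. Slc25a4 measured 1430 to 3746 CPM in intercalated cell-like cells of the 5 libraries, against 579 to 947 CPM in proximal tubule-like cells.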

How the data were processed

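Drop-seq libraries of 5 mouse kidney samples were analysed. The deposited tables hold UMI counts per gene and barcode, whole numbers with no normalization, per the file headers and values. The submitters' processing notes name Seurat 2.3.1 and mm9; the aligner is not given in the sources used here. Barcodes with at least 200 genes were kept. Doublets were scored with scrublet in scanpy 1.11.5, and cells were clustered without member genes (2000 variable genes, 30 components, 15 neighbours, leidenalg 0.10.2, resolution 1.0). Counts were summed per class and library, and edgeR 4.0.16 gave TMM factors as an alternative scaling. The rules were tested on simulated data. Mouse genes with near-identical processed copies, many members included, may have lost or shared reads. UMI counts were not scaled by length, since they count 3′ ends.

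Named genes were the 3 most abundant members per complex, the Sdh genes, fixed paralogue sets, up to 5 members per direction and comparison with the largest ratios, and up to 4 genes per list past the fold size; a few others were chosen after their values were seen. Members and lists were chosen with earlier results of these data known. Alternatives covered the gene minimum, clustering, class assignment, doublets, free RNA, scaling, totals, member sets, pseudocount and level filter. Values of a few single genes are not reported here.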

Additional observations from a re-analysis of the deposited data

Results flagged for a closer look

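Principal cell-like and thick ascending limb-like cells moved in opposite directions between the same 2 libraries. The log2 ratio of the summed share, inner medulla over cortex, was -1.06 in the former and 0.55 in the latter. The difference between the classes was not tested, since each region is 1 library.

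Barcodes of 50 to 99 detected genes entered no class sum. In each library they served as the profile for the free RNA estimate and its subtraction. They also carried the members. Their summed share was 8.27% in the cortex, 8.69% in the outer medulla, 6.35% in the inner medulla, and 8.19% and 8.43% in the whole kidney libraries. Cells of at least 200 genes held 8.01%, 7.94%, 5.89%, 7.42% and 7.92% in the same order.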

How the results depend on the processing

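Of 274 recomputed values of summed shares and their ratios, 204 stayed within the library or counting spread, 66 moved beyond it and 4 reversed. The cause was not tested. The 204 include ratios over proximal tubule-like cells recomputed without either whole kidney library. These could only stay within the spread, which came from that same pair, so they say nothing on stability. The log2 ratios of outer medulla over cortex near 0 (proximal tubule 0.00575, distal convoluted tubule -0.00446) crossed 0 in 3 further cases, at -0.00419 (marker scores), -0.0146 (ribosomal genes out of the total) and 0.00667 (without the 5 most abundant members). The 4 reversals came with TMM factors from all genes, in mean log2 ratios over proximal tubule-like cells: -0.32 for thick ascending limb, -0.32 for intercalated, -0.20 for connecting tubule and -0.60 for principal cells, with 0.33 for distal convoluted tubule. TMM factors from genes of at least 200 CPM, an alternative chosen after seeing the data, gave 0.32, 0.29, 0.31, 0.0531 and 0.69. With classes from marker scores the ratio was 0.61 for distal convoluted tubule, 0.29 for thick ascending limb and 0.36 for intercalated cells, and with at least 500 detected genes 0.70 for distal convoluted tubule. Intercalated cells stood at 0.46 with members allowed in the clustering, 0.46 and 0.43 at resolutions 0.5 and 2.0, 0.47 with the 5% highest doublet scores removed, 0.47 with free RNA subtracted and 0.47 without the 5 most abundant members. Connecting tubule cells stood at 0.62 at resolution 0.5, 0.21 with doublet scores removed, 0.14 with free RNA subtracted and 0.21 without the 5 most abundant members.

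Between regions, TMM factors from all genes gave log2 ratios of -0.92 (principal cell, inner medulla over cortex), -0.59 (principal cell, inner over outer medulla), 0.34, 0.35 and 0.76 (thick ascending limb, outer over cortex, inner over outer and inner over cortex), -0.51 (proximal tubule, inner over cortex), -0.43 and -0.83 (intercalated cell, outer and inner over cortex) and -0.18 (distal convoluted tubule, outer over cortex). The factors from genes of at least 200 CPM gave -0.75 (principal cell, inner over outer), 0.15, 0.29 and 0.45 (thick ascending limb, same order) and -0.45 (intercalated cell, inner over cortex). With free RNA subtracted the values were -0.46 and -0.59 (principal cell, outer over cortex and inner over outer), 0.16 and 0.40 (thick ascending limb, outer over cortex and inner over outer) and -0.25 and -0.38 (intercalated cell, outer and inner over cortex). Marker scores gave 0.0346 and 0.53 (thick ascending limb, outer over cortex and inner over outer), -0.21 (proximal tubule, inner over cortex), -0.19 (intercalated cell, inner over cortex) and -0.0834 (distal convoluted tubule). Removing doublet scores gave 0.40 and 0.49 (thick ascending limb, inner over outer and inner over cortex) and -0.19 (intercalated cell, outer over cortex). Without the 5 most abundant members the principal cell value, inner over outer, was -0.64.

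Median shares moved without the 5 most abundant members, by construction, to 10.9% (distal convoluted tubule), 8.15% (intercalated), 6.83% (connecting tubule), 6.02% (proximal tubule) and 4.01% (endothelial), and with ribosomal genes out of the total to 14.3% (distal convoluted tubule), 8.88% (connecting tubule) and 7.96% (proximal tubule). Distal convoluted tubule stood at 12.4% with at least 500 genes, 11.2% with marker scores and 14.6% with free RNA subtracted. Connecting tubule stood at 11.5% at resolution 0.5, and principal cells at 3.77% with at least 500 genes, where the inner medulla was the one library left. Endothelial cells stood at 5.73% with marker scores, 5.87% at resolution 0.5 and 0.270% with free RNA subtracted. Members past the fold size numbered 25 to 42 in principal cells and 4 to 19 in the thick ascending limb, inner medulla over cortex, over all settings. TMM factors were not applied to single shares, which have no reference sum. No paired analysis was possible because each region has 1 library and only the whole kidney carries replicate numbers.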

Other observations

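Cluster 13, left without a name and led by Bst1, Nr2e3, Nupr1 and Cryab, held 128 of its 155 cells in the inner medulla. Its summed share there was 4.09% (3.92% to 4.26%), near the 3.71% of inner medullary cluster 9. Complex I made up 39.1% of its member UMIs and of cluster 9 alike, and complex III 8.35% and 8.63%. In cluster 13 the complex I subunit Ndufb8 was the highest member, at 2471 CPM (126 UMIs), ahead of Cox6a1 at 1883 CPM (96 UMIs). The complex I share of cluster 13 without Ndufb8 was not computed. Of cluster 9, 432 of 437 cells came from the inner medulla, so the values of both clusters rest on 1 library.

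Ppargc1a, a coactivator of mitochondrial genes, was the 1 tested gene of the regulator list past the fold size in thick ascending limb-like over proximal tubule-like cells. Of all genes tested there, 9.21% were past it upward. Ppargc1a passed the level filter only through the limb, where it was high, so its level is given as a description. It measured 205, 293 and 278 CPM in cortex, outer and inner medulla and 498 and 406 CPM in the whole kidney, from 7 to 32 UMIs, against 35.9 to 51.0 CPM in proximal tubule-like cells. Its part in the summed share was not tested.

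Mrps6, a mitochondrial ribosomal gene, measured 1348 to 3380 CPM in thick ascending limb-like and 56.1 to 243 CPM in proximal tubule-like cells. In principal cell-like cells it was 237 CPM in the cortex and 1239 CPM in the inner medulla, while 66 of 69 tested members were lower in value there. Its locus overlaps that of the osmolyte transporter gene Slc5a3, so its level is uncertain.

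In cluster 10, led by MHC class II genes, the free RNA estimate was 71.0% to 95.2% of UMIs. In endothelial-like cells it ran from 64.7% to 99%, the upper limit set for the estimate. Their member shares were 6.52% to 7.33% and 5.04% to 5.95%. The estimate was read from proximal tubule markers, so it cannot tell free RNA from proximal tubule cells or doublets with them. Against proximal tubule-like cells, 7 of 860 tested genes were past the fold size downward in cluster 10 and 20 upward, in both whole kidney libraries. How much of the cluster 10 and endothelial-like sums was free RNA was not tested in another way.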
